A study of Mus musculus with 18 samples.

Results

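Two-sided hubs are stretches of chromosome from which many chromatin loops leave in both directions along the DNA. Positions of 20926 loops and of 13483 domains came from Micro-C, an assay that cuts chromatin between nucleosomes and ligates the ends of DNA that lie near each other in the nucleus. Each loop is given by its anchors, a pair of 10 kb windows that met more often than their surroundings. Anchors that overlapped by 1 bp or more were merged into anchor regions, and 19 of the 20535 autosomal loops were left out because both anchors fell into 1 region. The members were chosen by measured values, namely the number and the direction of their loops. A region was kept when it had 5 or more loops and when at least 30% of them ran to higher and at least 30% to lower coordinates. This rule kept 515 of 19863 autosomal anchor regions, a share of 2.59%, and 515 of the 1566 regions with 5 or more loops.

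The series compared G1E-ER4 cells of an LDB1-AID subline without treatment (9 samples) and after 4 h of auxin (9 samples). G1E-ER4 is a mouse erythroblast line derived from cells without the erythroid factor GATA1 and carries a GATA1 fusion that responds to hormone. Samples of both groups share the LDB1 fusion to an auxin-inducible degron, a tag through which auxin causes loss of the protein. Whether the subline is a single clone and whether GATA1 was activated are not given in the sources used here. Both lists were made once for the whole series and hold positions only, on the mm9 build per the submitters' processing notes. They have no value per sample or treatment, so the effect of auxin, the spread between replicates and the depth are unknown here. The labelled cell type could not be checked against marker genes for the same reason. All intervals are 95% intervals that cover the counting of regions, loops or pairs only. Differences between classes of regions were not tested, because regions and loops of 1 list are not replicates.

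As background, many chromatin loops form when cohesin extrudes DNA until it meets CTCF, a DNA-binding protein that stops it in an orientation-dependent way. Loops of this kind often end at the borders of topologically associating domains, stretches of chromosome that contact themselves more than their neighbours. Other loops join enhancers and promoters through transcription factors and their cofactors. LDB1 is such a cofactor: it binds no DNA itself, dimerises, and in erythroid cells joins sites bound by GATA1, TAL1 and LMO2. A region that loops both ways can be a border with loops into the domains on both sides, or a site inside a domain that contacts several partners around it. No annotation or genome of the mm9 build was used here, so no gene, motif or sequence is given for the hubs.

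The hubs carried 3279 loop ends from 3099 distinct loops, which were 15.1% of the autosomal loops with anchors in different regions. The median hub had 6 loops (range 5 to 14) to 5 partner regions (range 3 to 13). Of the hubs, 213 had 5 loops, 143 had 6 and 41 had 10 or more. Directions were close to even over the whole set, with 1650 ends to lower and 1629 to higher coordinates. Of single hubs, 226 had more loops to lower, 214 had more to higher and 75 had equal numbers, which only an even loop number allows. Among the 65 regions with 10 or more loops, 41 met the rule, whereas none of the 3 regions with 15 loops did.

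**Figure D1:**
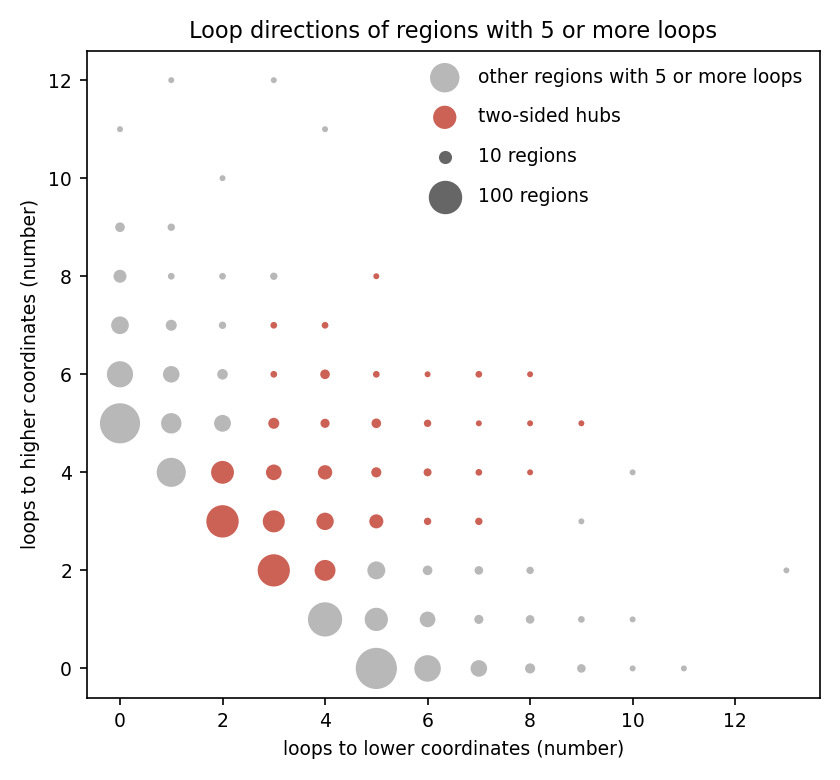
Number of loops to lower coordinates (x axis) against number to higher coordinates (y axis) for the 1566 autosomal regions with 5 or more loops; the area of a point grows with the number of regions at that position. The 515 two-sided hubs (red) lie along the diagonal because the rule selected them there, and the fullest red points hold 107 and 106 hubs with 5 loops each.

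The members nearest to the limits of the rule were numerous. With the smaller direction at 33.3%, 95 hubs had 2 of 6 loops, 5 had 3 of 9, 1 had 4 of 12, and 5 hubs lay at exactly 30% with 3 of 10. Just outside, 58 regions had 2 of 7 loops in the smaller direction, or 28.6%, and 16 had 2 of 8. A region with 7 loops therefore needed 3 in the smaller direction, and only 52 of 215 such regions were members, compared with 143 of 378 regions with 6 loops. Below the minimum of 5 loops, 184 of 1372 regions with 4 loops had 2 each way.

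Merging set how many hubs there were. When only anchors with identical coordinates counted as 1 region, 11 regions met the rule, and with anchors up to 5 kb apart merged there were 794. Hubs were wider than the 10 kb of a single anchor, with a median of 20.5 kb (quartiles 17.8 and 25 kb, widest 46.5 kb). Multiple loops to 1 partner also entered the count: 235 hubs had at least 1 partner joined by more than 1 loop, and 415 had 5 or more different partners. The list places loops on coordinate grids of 2, 5 and 10 kb, and all 3 contributed: 24.4% of the loop ends fell on the finest, 49.3% on the middle and 26.3% on the coarsest. With the 5 kb grid alone, 59 regions met the rule.

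Hubs were present on all 19 autosomes. Chromosome 11 had the most, 48 hubs or 0.404 per Mb, and chromosome 16 the fewest, 10 hubs or 0.105 per Mb. The mean was 0.215 ± 0.0819 per Mb (SD over 19 autosomes). The share of regions with 5 or more loops that were two-sided averaged 32.7% ± 6.70 (SD over 19 autosomes), with the lowest value of 21.7% on chromosome 16 and the highest of 48.9% on chromosome 14. Chromosome 14 also had the lowest loop density of the autosomes, 6.09 loops per Mb, and chromosome 11 the highest, 13.2 per Mb. X was outside the rule, and 6 of its 12 regions with 5 or more loops would have met it.

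The hubs with the most loops show how different members can be. The hub at positions 91067501 to 91092500 of chromosome 16 had 14 loops. Its loops to lower coordinates spanned 50, 55, 115, 120, 250, 380, 400 and 750 kb, and those to higher coordinates 135, 265, 270, 380, 440 and 540 kb. The midpoint of this hub coincided with the start of a domain, and none of its 30 pairs of a lower and a higher partner was joined by a loop. The hub at 101797501 to 101824000 of chromosome 15 also had 14 loops, of which 9 ran to lower coordinates with spans of 200 to 1520 kb. Its 5 loops to higher coordinates were shorter, at 78, 90, 125, 160 and 235 kb. A domain boundary lay 79.2 kb above its midpoint, its higher partners lay 84.2 kb or more above it, and none of those 5 loops stayed inside a domain.

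Another hub of chromosome 15, at 100274001 to 100304000, was itself a partner of the one just described, through its longest loop of 1520 kb. It had 12 loops to 12 partners, 8 of them lower with spans of 40, 65, 74, 120, 130, 195, 230 and 420 kb. Its midpoint lay 1.0 kb from a position where 1 domain ends and another starts, and none of its 32 lower-higher pairs was joined. The remaining hub of chromosome 15 among the 10 largest, at 80517501 to 80550000, had 13 loops and lay 8.8 kb from a boundary of the same kind. Its 8 lower loops spanned 55 to 760 kb and its 5 higher loops 85 to 500 kb, and 1 of 35 pairs was joined. The hub at 8667501 to 8697500 of chromosome 16 was more compact: its 12 loops went to 8 partners, with spans of up to 270 kb to lower and up to 182 kb to higher coordinates. Although a boundary lay 17.5 kb from its midpoint, each of its 12 loops stayed inside a domain, 1 larger domain covered both arms, and 4 of its 15 pairs were joined.

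Chromosome 12 had 2 of the 10 largest hubs, both far from a boundary. The hub at 111927501 to 111947500 had 13 loops to 13 different partners, with 6 of the 7 lower spans between 28 and 285 kb and the last at 1900 kb. Its nearest boundary was 151 kb away, and 5 of its 42 pairs were joined. The hub at 116032501 to 116072500 was 172.5 kb from a boundary and also had 13 loops. Apart from 1 loop of 800 kb, all of its loops spanned 36 to 210 kb, and 6 of its 18 pairs were joined. Of its 9 partners, 5 had 5 or more loops themselves.

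The other 3 of the 10 largest hubs lay on chromosomes 4, 1 and 9. At 130496001 to 130522500 of chromosome 4, 5 lower loops of 48 to 165 kb reached 2 partners and 8 higher loops of 75 to 875 kb reached 8. All 5 lower loops lay inside a domain and none of the 8 higher loops did, with a boundary 15.8 kb above the midpoint. At 134247501 to 134280000 of chromosome 1, there were 6 loops each way to 12 partners, within a network of 75 linked regions. At 107186001 to 107210000 of chromosome 9, 11 loops went to 11 partners and the nearest boundary was 242 kb away.

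**Figure D2:**
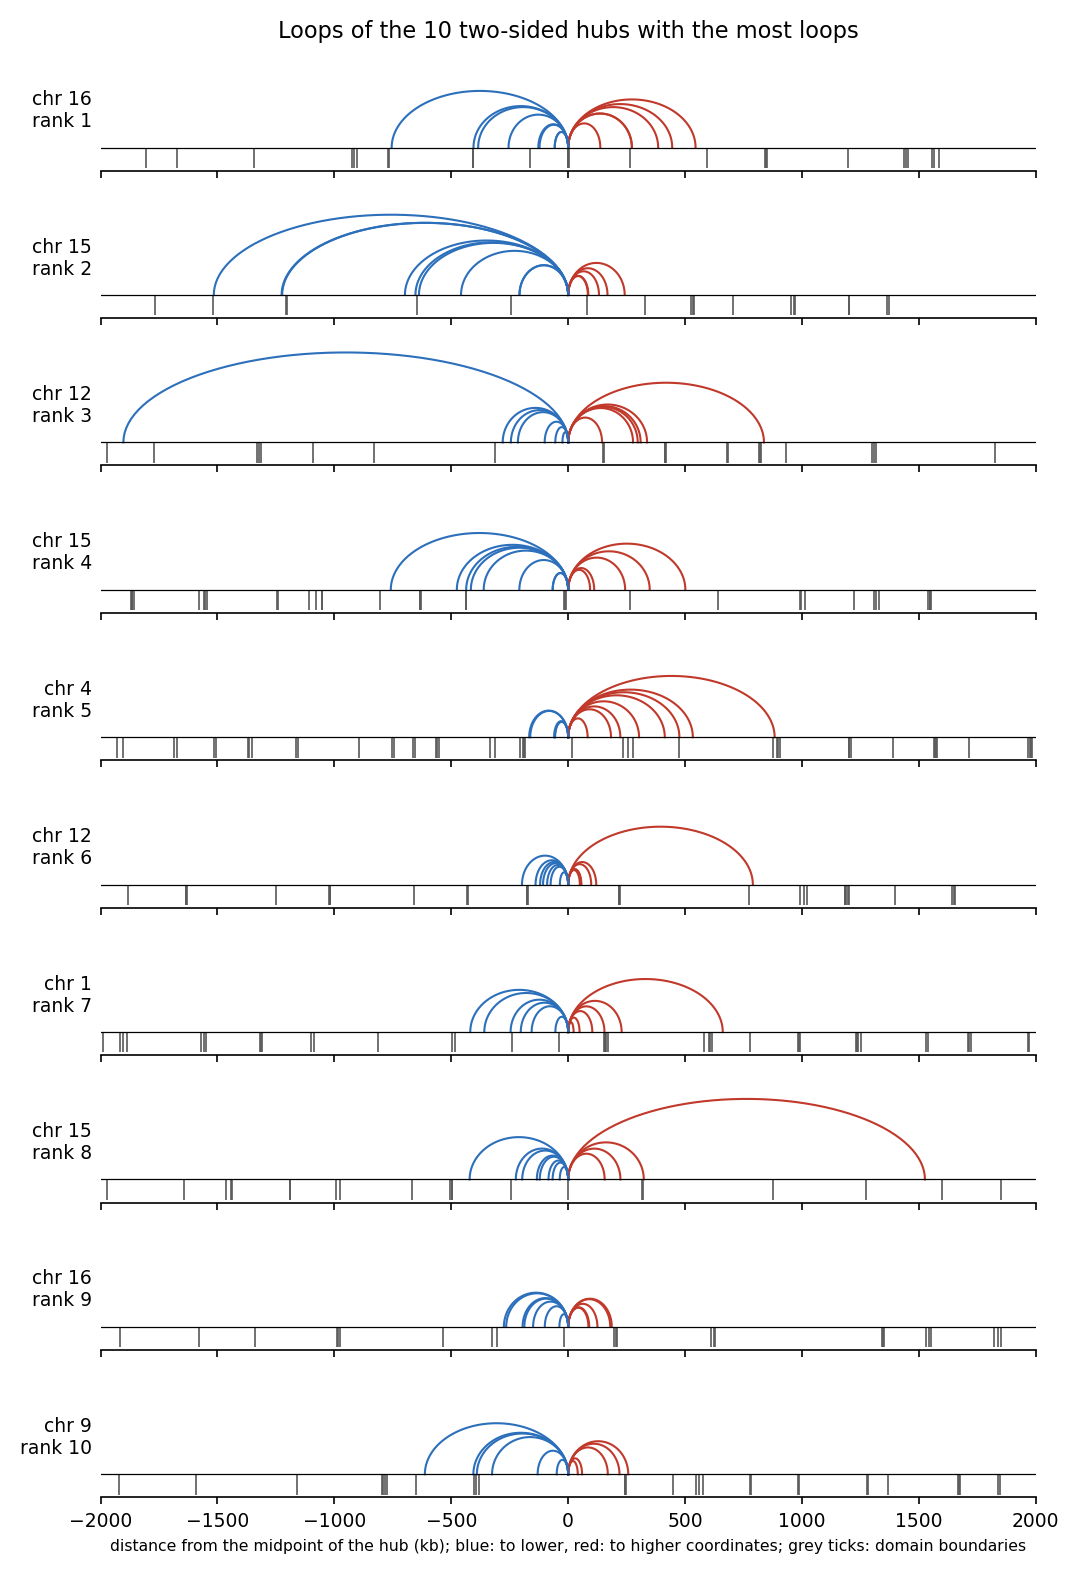
Arcs from the midpoint of each of the 10 two-sided hubs with the most loops to the partner anchors of its loops, against distance in kb (blue to lower, red to higher coordinates, grey ticks domain boundaries); arc height grows with the square root of the distance. The hubs of rank 1, 4, 5, 8 and 9 lie within 20 kb of a boundary tick and those of rank 3, 6 and 10 have none within 100 kb, and single loops of 1900 kb (rank 3) and 1520 kb (rank 8) exceed all others of their hub.

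Spans were alike in both directions. Loops to lower coordinates had a median span of 170 kb (interval 160 to 180 kb) and loops to higher coordinates 164 kb (155 to 170 kb). The longest lower loop of a hub had a median of 320 kb and the longest higher loop 295 kb, and the lower arm was the longer one in 259 of 515 hubs. Within a hub the arms usually differed: the median ratio of the longer to the shorter arm was 1.86, and in 128 hubs it was above 3. The reach, from the most distant lower to the most distant higher partner, had a median of 680 kb (quartiles 473 and 1018 kb). It was above 1 Mb in 135 hubs and under 200 kb in 11, with extremes of 115 and 3437.5 kb. Other regions with 5 or more loops had a longer median span, 205 kb (interval 198 to 210 kb), than the 165 kb (160 to 172 kb) of two-sided hubs in both directions together, and those of them that looped both ways had 190 kb (180 to 200 kb).

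Among the 107 hubs with 8 or more loops, the longest reach was 2740 kb, shared by the hub of chromosome 12 at 111927501 and a hub at 153527501 to 153540000 of chromosome 4. The chromosome 4 hub had lower loops of 136, 185, 200 and 1830 kb and higher loops of 660, 700, 800 and 910 kb, so that every one of its higher loops was longer than 3 of its lower ones. The next longest, 2467.5 kb, belonged to a hub at 182776001 to 182810000 of chromosome 1. The shortest reach was 250.0 kb, at 28912501 to 28944000 of chromosome 7, where 8 loops went to 5 partners inside 1 domain. Another hub of chromosome 7, at 16546001 to 16574000, had a reach of 342.5 kb, and no loop passed over its midpoint from outside. The third shortest, 359.5 kb, was at 134002001 to 134024000 of chromosome 1, and 3 of its partners were two-sided hubs.

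The first comparison with the second list was the distance of hubs to domain boundaries, a measure the rule did not use. A boundary was found no more than 20 kb from the midpoint in 210 of 515 hubs, or 40.8% (95% Wilson interval 36.6 to 45.1%), against 24.5% of all autosomal anchor regions. Among other regions with 5 or more loops the share was 32.6% (29.9 to 35.5%), and among regions with 2 to 4 loops it was 25.9%. This comparison class includes 575 regions that loop one way only. The 476 that looped both ways had 35.7% (interval 31.5 to 40.1%), which overlaps the interval of two-sided hubs. Two-sided hubs were above other regions with 5 or more loops on 13 of 19 autosomes. The share per autosome averaged 42.3% ± 14.6 (SD over 19 autosomes) and ran from 15.8% on chromosome 12 to 80.0% on chromosome 16, which had 10 hubs. By loop number it was 36.2% for hubs with 5 loops (77 of 213) and 52.3% for those with 8 or more (56 of 107). Other regions showed 31.1% and 41.5% at the same loop numbers. Width moved with it too: of hubs up to 15 kb wide 31.5% were near a boundary, against 32.6% of other regions of that width, and of those over 25 kb wide 45.8 and 29.8%.

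The order of the classes depended on the distance. Within 10 kb, 27% of two-sided hubs and 19.7% of other regions with 5 or more loops had a boundary. Within 40 kb the shares were 53.6% and 57.6%, and within 60 kb they were 61.2% and 73.4%, with two-sided hubs the lower class. Among the 476 other regions that looped both ways, the shares were 22.5% within 10 kb, 55.7% within 40 kb and 67.0% within 60 kb. Within 5 kb lay 16.8% of these regions and 16.7% of two-sided hubs, and the median distance to a boundary was 34.9 and 34.2 kb. Other regions looping mainly to higher coordinates and within 40 kb of a boundary lay a median of 24.2 kb above it, and those looping mainly to lower coordinates 8.8 kb below it (a median of -8.75 kb). For two-sided hubs within 40 kb the median was 3.75 kb (interval 1.25 to 5.50 kb). When boundaries came only from domains that lie inside no other, the shares within 20 kb were 21.6% and 21.4%. The higher share of two-sided hubs was therefore seen with the full list and with domains that hold no other (37.7% against 31.5%), and not with the outermost domains. Measured from region edges instead of midpoints, the shares within 20 kb were closer, at 48.2% and 44.1%. These alternatives were not computed for only the other regions that looped both ways.

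**Figure D3:**
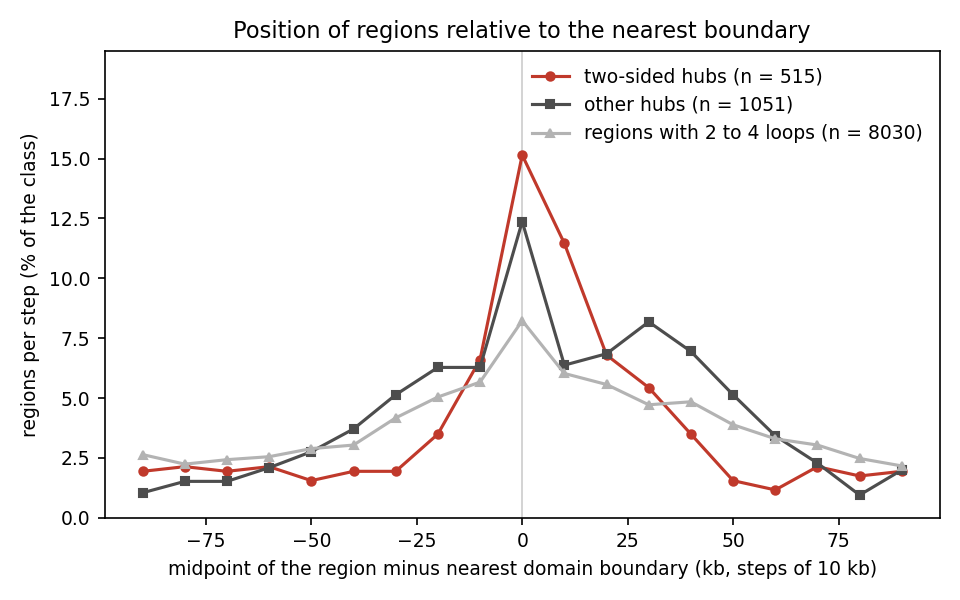
Share of regions per 10 kb step (y axis, % of the class) by signed distance of the region's midpoint from its nearest domain boundary (x axis, kb) for two-sided hubs, other regions with 5 or more loops and regions with 2 to 4 loops; regions farther than 95 kb are not drawn. Two-sided hubs peak at 0 kb with 15.1% of the class, and the shoulder of other hubs at 30 kb (8.18%) is lower for two-sided hubs (5.44%).

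A boundary can be the end of 1 domain, the start of another or both. For 100 of the 210 hubs within 20 kb it was both, for 59 an end only and for 51 a start only. These shares of 47.6, 28.1 and 24.3% were close to those of other regions with 5 or more loops near a boundary (49.0, 25.9 and 25.1%). A corner loop joins the start of a domain to its end, here with each anchor midpoint within 20 kb of them. Such a loop was found at 134 of 515 hubs (26.0%, interval 22.4 to 30%), compared with 195 of 1051 other regions with 5 or more loops (18.6%, interval 16.3 to 21.0%). With this 20 kb limit, the gap was in 1 direction. Corner loops to lower coordinates were found at 12.4 and 11.7%, and to higher coordinates at 18.4 and 8.28%. Other regions with 5 or more loops, mainly to higher coordinates and within 40 kb of a boundary, lay a median of 24.2 kb above it. That is farther than the limit. Larger and smaller limits were computed for two-sided hubs only, so whether the gap depends on the limit was not tested. Corner loops were not counted over all autosomal regions, nor for only the other regions that looped both ways. Corner loops in both directions were present at 25 two-sided hubs (4.85%) and at 15 other regions (1.43%), a class in which 575 of 1051 regions loop one way only. All 25 lay within 20 kb of a boundary, where they were 11.9% of the hubs, and so did 131 of the 134 hubs with any corner loop. This follows largely from the definition, since each anchor of a corner loop lies within 20 kb of a boundary.

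Inside a hub, the anchors of loops to higher coordinates tended to lie above the anchors of loops to lower coordinates. The difference between their mean positions was above 0 in 436 of 515 hubs, a share of 84.7% (interval 81.3 to 87.5%), below 0 in 74 and exactly 0 in 5. Among all 3361 autosomal regions with loops both ways the share was 62.7%. Among regions with 2 to 4 loops it was 54.3%, and among other regions with 5 or more loops that looped both ways it was 80.3% (interval 76.4 to 83.6%), so the order was also common there. Regions with 2 to 4 loops often had no difference at all, in 429 of 2370 (18.1%), and 27.6% of them had the opposite order, against 14.4% of two-sided hubs. The median difference was 5.25 kb (interval 5 to 5.92 kb) in two-sided hubs and 1 kb in regions with 2 to 4 loops. By loop number the share was 81.7% with 5 loops, 78.3% with 6, 98.1% with 7 (51 of 52) and 92.5% with 8 or more. Every autosome had the order in more than 50% of its hubs, from 57.9% on chromosome 12 to 100% on chromosome 18, which had 11 hubs.

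Width and grid moved with this order. In hubs up to 15 kb wide the share was 78.1% (57 of 73), in other regions with 5 or more loops of that width 72.0% (95 of 132) and in regions with 2 to 4 loops 45.5%. From over 20 to 25 kb wide, it was 86.6% of two-sided hubs, 88.8% of the other regions with 5 or more loops and 68.8% of regions with 2 to 4 loops. The part of width in the order was not tested. With only the loops of the 2 kb grid it was 85.2% (144 of 169 hubs with such loops both ways, 15 in the opposite order). With the 5 kb grid it was 76.1% (287 of 377, 32 opposite), and with the 10 kb grid 61.4% (116 of 189, 18 opposite). In the remaining hubs on each grid the mean positions were equal, and the lower shares on coarser grids went with more such hubs. In 205 hubs (39.8%) at least 1 anchor with identical coordinates served loops in both directions. The share was alike, 39.9%, in other regions with 5 or more loops that looped both ways (190 of 476). Over all autosomal regions with loops both ways it was 36.3%.

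**Figure D4:**
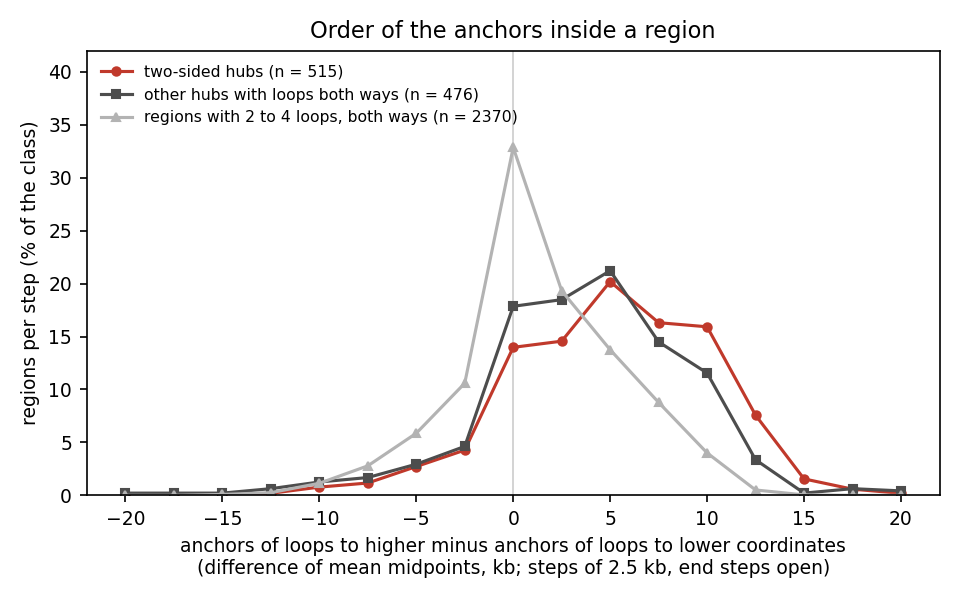
Share of regions (y axis, % of the class, steps of 2.5 kb) by the mean midpoint of anchors of loops to higher coordinates minus that of anchors of loops to lower coordinates (x axis, kb), for regions that loop both ways. Two-sided hubs and other regions with 5 or more loops peak at 5 kb, with 20.2 and 21.2%, and regions with 2 to 4 loops at 0 kb with 32.9%.

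The order was more frequent near boundaries than away from them. It was present in 198 of 210 hubs within 20 kb of a boundary (94.3%, interval 90.3 to 96.7%) and in 238 of 305 hubs farther away (78.0%, interval 73.1 to 82.3%). The median difference was 7 kb near boundaries and 3.92 kb away from them. In two-sided hubs near boundaries, the lower-looping anchors were centred at -0.833 kb from the boundary (interval -2.67 to 0.833 kb). The higher-looping anchors were centred at 6.55 kb (4.46 to 7.5 kb). Values were alike in the 170 other regions with 5 or more loops that looped both ways and lay near a boundary. Their lower-looping anchors were centred at -0.625 kb (interval -2.33 to 2.5 kb). Their higher-looping anchors were centred at 5.92 kb (2.5 to 7.5 kb). An anchor with identical coordinates served both directions in 63 of the hubs near boundaries (30%) and in 142 of those away (46.6%). Hubs near boundaries were also somewhat wider, with a median of 22.5 kb against 20 kb, and had longer loops, with a median span of 196 kb (interval 185 to 205 kb) against 145 kb (135 to 155 kb).

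The arms of a hub were then compared with domains. In 248 of 515 hubs, 48.2% (interval 43.9 to 52.5%), 1 domain covered everything from the most distant lower to the most distant higher partner. The share was 62.3% among all autosomal regions with loops both ways and 49.6% among other regions with 5 or more loops that looped both ways. Reach differed between these classes: its median was 420 kb in regions with 2 to 4 loops against 680 kb in two-sided hubs. The largest domain in the list was 2000 kb, so hubs with a longer reach could not be covered. In 188 hubs (36.5%) a domain covered 1 whole arm but not the other, in 22 each arm had a domain of its own with none over both, and in 57 neither arm was covered. With the nearest partner on each side in place of the most distant, 80% of hubs were covered (interval 76.3 to 83.2%). The share was then 75.8% among all autosomal regions with loops both ways. It was 69.7% (65.5 to 73.7%) among other regions with 5 or more loops that looped both ways. Two-sided hubs were thus below both classes with the most distant partners and above both with the nearest. Domains are nested in this list, and with only the domains that hold no other, 8.35% of hubs were covered.

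The share was 46.7% (98 of 210, interval 40.04 to 53.4%) near boundaries and 49.2% (150 of 305, interval 43.6 to 54.8%) away from them, with overlapping intervals. Of the hubs, 341 had 2 or 3 domains over their midpoint, 95 had 4 or more, 72 had 1 and 7 had none. Single loops mostly stayed inside a domain: 2729 of 3279 loop ends, 83.2% (interval 81.9 to 84.5%), belonged to loops with both anchor midpoints in 1 domain. This share was 88.0% (87.2 to 88.8%) for other regions with 5 or more loops, 85.7% (84.4 to 86.9%) for those of them that looped both ways and 86.4% over all autosomal regions. The median hub had 4 boundaries within its reach (quartiles 3 and 7).

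The next measure was whether a loop joins the flanks of a hub directly. Such a loop runs from a lower to a higher partner and passes over the hub, so the rule did not count it. In 369 of 515 hubs, 71.7% (interval 67.6 to 75.4%), at least 1 lower-higher pair of partners was joined, and the hub and its partners formed a triangle of loops. The share was 54.9% among all autosomal regions with loops both ways and 60.9% among other regions with 5 or more loops that looped both ways. For a given number of partners, an even division over the sides gives the most such pairs. Per pair, the share was 17.9% in two-sided hubs (770 of 4297) and 19.7% in those other regions (504 of 2564), so the higher share per hub was not accompanied by a higher share per pair. Over all autosomal regions with loops both ways 25.3% of pairs were joined (2832 of 11201), and for regions with 2 to 4 loops 35.9%, both above the two-sided hubs. The distance between partners was not held equal in these shares. Median reach was 420 kb in regions with 2 to 4 loops against 680 kb in two-sided hubs. Pairs of 1 hub share their partners, and the intervals for pairs are too narrow for that reason. In two-sided hubs 151 had 1 joined pair, 218 had 2 or more and 146 had none.

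The most joined pairs at 1 hub were 7, in 2 hubs, and 4 hubs had 6. At 11452001 to 11470000 of chromosome 11, 2 lower loops of 55 and 95 kb and 4 higher loops of 130, 186, 230 and 400 kb gave 8 pairs, of which 7 were joined by loops of 180 to 510 kb. At 84507501 to 84520000 of chromosome 17, 3 loops each way gave 9 pairs, of which 7 were joined. At 118516001 to 118536000 of chromosome 2, all 6 pairs were joined, by loops of 95 to 395 kb. In these 3 hubs 1 domain covered both arms, but the third was taken by position from the 4 with 6 joined pairs. Of those 4, the hub at 116032501 of chromosome 12 had a reach of 987.5 kb and no domain over both arms. There were 16 hubs in which every lower-higher pair was joined.

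Around two-sided hubs, a smaller share of opposite-side pairs was joined with partners over 400 kb apart than with closer ones. The share was lower near boundaries than away from them at each distance, but the intervals were apart only up to 400 kb. Of partners up to 200 kb apart, 34.4% of pairs around hubs away from boundaries were joined (140 of 407, interval 29.9 to 39.1%), compared with 18.0% around hubs within 20 kb of a boundary (27 of 150, interval 12.7 to 24.9%). From 200 to 400 kb the shares were 29.7% (26.5 to 33.0%) and 18.4% (15.6 to 21.6%). From 400 to 600 kb they were 16.9% (13.8 to 20.4%) and 12.7% (10.2 to 15.8%), and from 600 to 1000 kb 9.77 and 7.86%, with overlapping intervals. Pairs of partners on the same side of the hub did not show this gap: up to 200 kb apart, 24.6% (288 of 1172) were joined away from boundaries and 23.1% (237 of 1025) near them. Over all distances 21.8% of opposite-side pairs were joined away from boundaries and 13.2% near them, and for same-side pairs 22.0 and 21.0%. The gap was thus one of opposite-side pairs at short distance. Domain boundaries and loops come from the same series, and the gap itself was not tested.

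**Figure D5:**
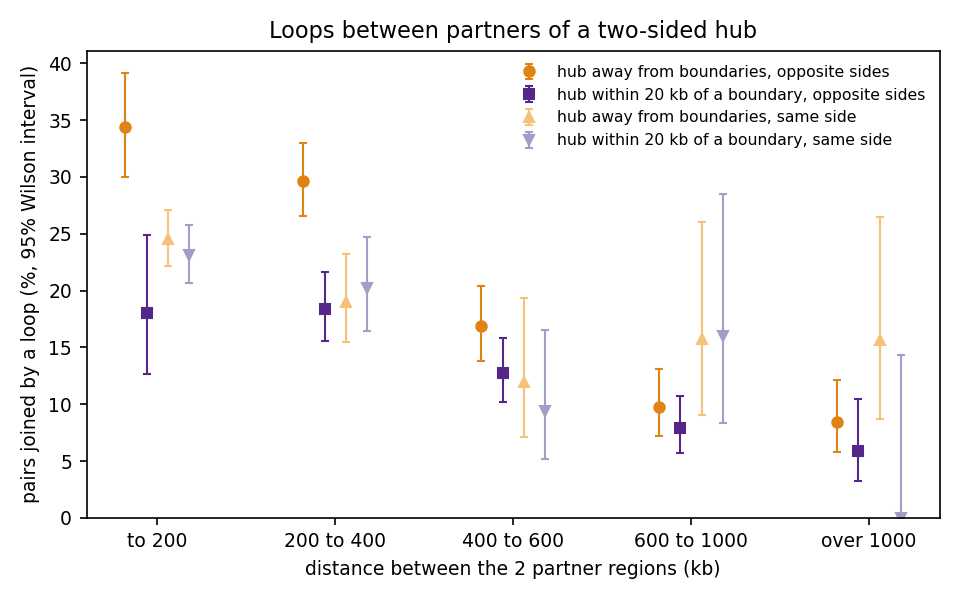
Share of pairs of partner regions that a loop joins (y axis, %, bars are 95% Wilson intervals) by the distance between the partners (x axis, kb), for partners on opposite sides or on the same side of a two-sided hub, with hubs divided by a domain boundary within 20 kb. Opposite-side pairs around hubs away from boundaries are joined most often at short distance (34.4% up to 200 kb), and around hubs near a boundary 18.0% are.

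Loops that pass over a hub without touching it gave a similar picture. The median hub had 3 such loops (quartiles 2 and 6, at most 27), and the median was 4 away from boundaries and 2 near them. No loop passed over 49 hubs (9.51%), compared with 218 of 1051 other regions with 5 or more loops (20.7%), one-way regions included. Loops passing over were not counted for all autosomal regions, nor for only the other regions that looped both ways. The contrast therefore has no like class beside it. In the network of regions linked by loops, the lower and higher partners of 394 hubs (76.5%, interval 72.7 to 80.0%) were still linked by some path when the hub was removed. In the remaining hubs, no path was left between the sides. Among other regions with 5 or more loops that looped both ways, 68.5% stayed linked (326 of 476, interval 64.2 to 72.5%). Among regions with 2 to 4 loops and loops both ways it was 58.3% (1382 of 2370). For two-sided hubs, the share that stayed linked was 81.6% (76.9 to 85.6%) away from boundaries and 69.0% (62.5 to 74.9%) near them.

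Partners of hubs were mostly regions with few loops. Of 2951 links from a hub to a partner region, 598 (20.3%) led to a region with no other partner and 782 (26.5%) to a region with 5 or more loops. A partner has at least 1 loop by being a partner, and without the loops to the hub itself the share with 5 or more was 14.9% (interval 13.7 to 16.3%). The same measure was 13.2% (12.4 to 14.1%) for partners of other regions with 5 or more loops, and 14.6% both for those of them that looped both ways and for all autosomal regions with loops both ways. Two-sided hubs thus lay close to the regions that loop both ways. Of the links from two-sided hubs, 10.1% led to another two-sided hub (298 of 2951, interval 9.06 to 11.2%). The share was 8.40% (7.40 to 9.52%) for other regions with 5 or more loops that looped both ways. For all autosomal regions with loops both ways it was 8.73%. Hubs linked to each other in 149 pairs, which involved 221 of the 515 hubs. Of these, 163 were linked to 1 other two-sided hub, 42 to 2, 13 to 3 and 3 to 4. Neighbouring hubs on a chromosome were a median of 1.45 Mb apart, and 86 of 496 neighbouring pairs were within 200 kb.

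Linked hubs formed 93 groups, of which 68 had 2 hubs, 18 had 3 and 7 had 4 or more. The largest was a chain of 7 hubs on chromosome 2 over 1660 kb, from positions 164850001 to 166510000. Its hubs had 5, 6, 7, 10, 9, 7 and 5 loops in order of position. The 3 hubs that were linked to 4 others all belonged to this chain, at 165146001, 165307501 and 165900001. Over all networks, 328 of 3672 held a two-sided hub, 221 of them only 1 and 107 of them 2 or more, up to 10. Large networks usually held one: 121 of 156 networks with 20 or more regions did, compared with 46 of 3117 with under 10 regions. A two-sided hub needs 5 or more loops and partners on both sides, so a network of 2 regions cannot hold one. Part of this contrast therefore follows from the rule, and loop number was not held equal in it.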

How the data were processed

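Micro-C was made from 18 samples, but the deposited files used here were 1 loop list and 1 domain list for the whole series, with positions in bp and no header. The authors' build was mm9, per the submitters' processing notes; aligner, callers, filters and the samples behind each list are not given in the sources used here. The gene table provided was of GRCm38 and was not used for positions: on 8 of 20 chromosomes the coordinates ran past its last gene. Starts were read as counted from 0 and are printed counted from 1. Calculations used Python 3.11.15 and scipy 1.17.1, with matplotlib 3.10.9 for plots, and the code was checked on a made-up list with known hubs. Span was the distance between anchor midpoints, a boundary was any start or end of a domain, and near meant within 20 kb of the region's midpoint. Shares have Wilson intervals and medians order-statistic intervals, both at 95%. Columns of per-sample values left without a sample numbered 0. The members and the measures were chosen with earlier results of these data known. Named hubs were the 10 with the most loops (ties by partners, balance and position), the 3 longest and 3 shortest in reach among hubs with 8 or more loops, and the 3 with the most joined pairs (of the 4 hubs tied at 6 such pairs, the first by position); the chain on chromosome 2 was named after its values were seen. No test was run, since no value per sample was used here.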

Additional observations from a re-analysis of the deposited data

How the results depend on the processing

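No paired analysis was possible because neither list gives values by sample, and for the same reason no replicate could be left out. Of 80 recomputed values, 74 of them planned, 39 moved by less than their counting error or, for numbers of hubs, by less than 1.5 times, and 41 moved further; 6 alternatives, on grids, anchor positions and corner loops, were chosen after seeing the data. With anchors within 5 kb merged there were 794 two-sided hubs, and 34.9% of their partner regions had 5 or more loops. With only identical anchors merged there were 11 hubs, of which 27.3% were within 20 kb of a boundary, 54.5% were spanned by 1 domain and 27.3% had a joined pair; 1.75% of partners had 5 or more loops, and median spans were 207.5 kb to lower and 190 kb to higher coordinates. With the 5 kb grid alone there were 59 hubs, with 52.5% near a boundary, 57.6% spanned, 25.4% with a joined pair, 6.89% of partners with 5 or more loops, and spans of 205 and 210 kb. A minimum of 8 loops left 107 hubs, with 52.3% near a boundary, 35.5% spanned, 6.58% of partners with as many loops, and spans of 190 and 174 kb. With a minimum of 4 loops, 41.1% of partners had as many. With 20% each way there were 815 hubs and 67.6% had a joined pair. With each pair of regions counted once, 21.1% of partners were hubs and spans were 190 and 185 kb. No value moved beyond these limits with 40% each way (374 hubs) or with X included (521 hubs).

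Definitions moved the shares as well. The share near a boundary was 27% within 10 kb, 53.6% within 40 kb, 61.2% within 60 kb, 48.2% from region edges and 21.6% with domains inside no other. The spanned share was 8.35% with domains that hold no other and 80% for the nearest partners. Counting any pair of partners, 89.9% of hubs had a joined pair, and without loops to the hub itself 14.9% of partners had 5 or more loops. The order of anchors was found in 76.1% of hubs with loops of the 5 kb grid only (287 of 377, 32 opposite). With those of the 10 kb grid it was found in 61.4% (116 of 189, 18 opposite), and the remaining hubs had no difference. Corner loops were found at 47.8% of hubs with a tolerance of 40 kb and at 9.71% with 10 kb. The causes were not tested. Depth, the samples behind each list and the callers' thresholds are unknown here, so a region under 5 loops may have further loops below the authors' threshold, and what an absent loop means cannot be read from the lists.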
